A study of Mus musculus with 12 samples.

Results

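Untreated Cre-positive fibroblasts were compared with untreated Cre-negative fibroblasts, using 2 libraries of each line out of the 12 libraries of the series. The comparison covered the genes that lie off chromosomes X and Y. Of 47517 gene symbols in the deposited table, 17609 had enough counts to be tested, and 16638 of these were placed off X and Y. The other tested symbols, 657 on X, 5 on Y and 309 with no chromosome found, entered the fit but none of the counts of genes off X and Y.

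Both lines were mouse embryonic fibroblasts (MEFs), the mesenchymal cells that grow out when an embryo is dissociated. They came from C57BL/6 embryos at E13.5 and were immortalised at passage 1 with SV40 large T antigen, a viral protein that binds p53 and the retinoblastoma proteins. The Cre-positive line (Cre +ve) carried Rosa-CreERT2, a Cre recombinase fused to a part of the oestrogen receptor that responds to 4-hydroxytamoxifen (4-OHT) and expressed from the Rosa26 locus. Its Ssb1 genotype is written Fl/F and its Ssb2 genotype Fl/Fl. The Cre-negative line (Cre -ve) is written Fl/Fl for both genes, and the protocol text describes both lines as floxed on both alleles of Ssb1 (gene symbol Nabp2) and Ssb2 (Nabp1). Neither untreated group had been given ethanol or 4-OHT. Ethanol and 4-OHT cultures of each line, kept for 5 days and sampled as 2 libraries per group, gave further measurements of the line difference in separate libraries. The labels do not say how many embryos or clones a line came from, or which of the puromycin and blasticidin vectors immortalised it. With 1 line per genotype, the transgene, the embryo and the immortalisation cannot be told apart. Since they do not state separate cultures either, the p-values reflect library-to-library spread alone, part or all of which may be technical. In RNA from whole cultures, fewer cells of a type and less RNA per cell cannot be told apart.

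Fibroblasts in culture keep a record of where in the embryo they came from. Transcription factors of the limb, face, body wall and heart fields, and the Hox genes of the body axis, often stay on or off for many passages. Around this record, fibroblasts vary in how much collagen and other matrix they make, in their actin-based contractile apparatus and in how far they lean toward cartilage, fat or smooth muscle.

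The lines differed over much of the transcriptome. Of the 16638 genes off X and Y, 8209 were called at an adjusted p under 0.05 by edgeR's quasi-likelihood test (49.3%), with 4107 higher in Cre-positive cells (24.7%) and 4102 lower (24.7%). Most of these differences were small: the median absolute log2 difference over all genes was 0.28, with a median standard error of 0.096. Changes of at least 2-fold were called for 1275 genes that were higher (7.66%) and 792 that were lower (4.76%). At 8-fold or more, 338 genes were higher (2.03%) and 243 lower (1.46%). Library totals in the 4 untreated libraries ran from 20201855 to 27813387 estimated counts. The first principal component over all 12 libraries held 75.1% of the variance and placed the 6 Cre-positive libraries between 56.3 and 67.5 and the 6 Cre-negative libraries between -61.4 and -59.6. The mitochondrial share of counts was 1.47% in both Cre-positive libraries, against 1.69% and 1.62% in the Cre-negative libraries.

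The ethanol libraries gave a second measurement. There, 9155 genes were called between the lines (55%), 4432 higher (26.6%) and 4723 lower (28.4%). Of the 4107 genes higher in untreated Cre-positive cells, 3011 were also called higher with ethanol, which is 73.3% of the untreated and 67.9% of the ethanol calls. Of the 4102 lower genes, 3147 were also called lower, or 76.7% and 66.6%. Opposite calls were made for 100 and 96 genes. Among the genes at least 2-fold apart, 1020 of 1275 higher genes (80%) and 708 of 792 lower genes (89.4%) were called the same way with ethanol. The line difference itself differed between untreated and ethanol libraries for 2750 genes by the interaction test (16.5%), with a higher value untreated for 1371 (8.24%) and a lower one for 1379 (8.29%), and for 1723 without Cre-negative ethanol library 10 or 1731 without Cre-negative untreated library 2. With 4-OHT, where Cre is active in the Cre-positive line as well, 10173 genes were called (61.1%).

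**Figure D1:**
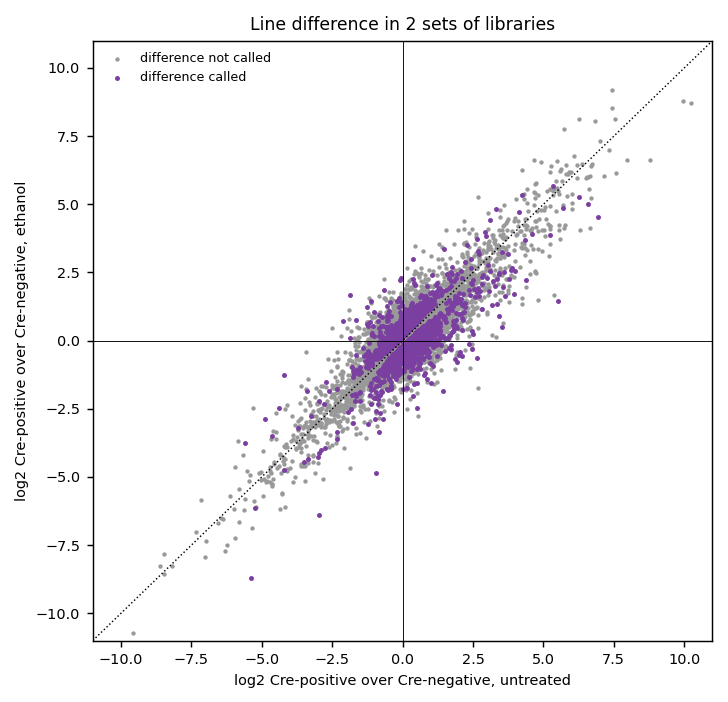
Log2 fold change of Cre-positive over Cre-negative cells in untreated libraries (horizontal) and in ethanol libraries (vertical) for 16477 genes off X and Y that had counts in all 4 groups. Purple points are the 2747 genes plotted whose line difference was called different between the 2 conditions, and the dotted line marks equal differences. Of the 2750 genes called different, 256 differed by at least 2-fold between the conditions.

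Fibroblast markers were present in both lines, and most were higher in Cre-positive cells. Of 16 listed markers 13 were tested, with 10 called higher and 1 lower, beside 24.7% of all genes in each direction. Col1a2, a chain of collagen I, was at 1717 and 1748 CPM, the count scaled to library size, in Cre-positive and 644 and 639.8 CPM in Cre-negative libraries (log2 fold change 1.43 ± 0.049 SE, adjusted p = 2.83e-16). Prrx1, a homeobox factor of limb and face mesenchyme, was at 434 and 451 CPM in Cre-positive and 112 and 116 CPM in Cre-negative libraries (1.96 ± 0.045 SE on the log2 scale, adjusted p = 3.49e-19). The pan-mesenchymal filament gene Vim was at 3494 and 3289.8 CPM in Cre-positive and 3824 and 3778 CPM in Cre-negative libraries, slightly lower in Cre-positive cells (log2 -0.16, adjusted p = 0.00297); without Cre-positive library 8 that call was lost (adjusted p = 0.0595). Among the markers named for fibroblasts, Thy1, Lum and Tcf21 did not reach the filter, Fap had at most 0.0393 CPM in any of the 4 libraries, and Dcn had 0.157 and 0.196 CPM in Cre-positive and 0.396 and 0.394 CPM in Cre-negative libraries. Several markers of adult connective tissue fibroblasts were therefore at or near 0 in both lines.

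Markers of other cell types were tested in part, and their sums differed between lists. None of the 12 pluripotency and germ cell markers passed the filter. Of 14 haematopoietic markers 4 were tested and the summed level of the tested genes was 9.14 to 10.5 CPM in Cre-positive and 11.8 to 12.7 CPM in Cre-negative libraries, with Ptprc and Spi1 untested. Of 18 epithelial markers 6 were tested, with sums of 9.58 to 10.9 CPM in Cre-positive and 11.5 to 16 CPM in Cre-negative libraries, and Epcam was not among them. Endothelial markers summed to 37.9 to 38.9 CPM in Cre-positive and 11 to 12.7 CPM in Cre-negative libraries, and Erg, an ETS factor also found outside endothelium, gave most of the Cre-positive sum, at 30.7 and 31.7 CPM in Cre-positive and 4.80 and 5.66 CPM in Cre-negative libraries. Pecam1 and Cdh5, which define endothelium, did not pass the filter. Melanocyte and neural crest markers summed to 19.7 to 22.9 CPM in Cre-positive and 67.2 to 69.4 CPM in Cre-negative libraries, and Erbb3 gave most of the Cre-negative sum. The other 3 of the 4 tested were higher in Cre-positive cells, led in level by Mitf, a melanocyte factor that other cells also make, at 18.1 and 21.5 CPM in Cre-positive and 12.6 and 10.9 CPM in Cre-negative libraries, while Sox10, Dct and Tyrp1 did not pass the filter. Neural and glial markers summed to 235 to 245 CPM in Cre-positive and 202 to 203 CPM in Cre-negative libraries, mostly from Nes, an intermediate filament gene, at 94.7 and 85 CPM in Cre-positive and 90.4 and 83.8 CPM in Cre-negative libraries, Ncam1 and Map2. Smooth muscle and pericyte markers summed to 136 to 139.5 CPM in Cre-positive and 180 to 200.5 CPM in Cre-negative libraries, mostly from Cspg4 at 80.6 and 86.4 CPM in Cre-positive and 168 and 190.0 CPM in Cre-negative libraries. By gene, 5 of the 7 tested smooth muscle and pericyte markers were higher in Cre-positive cells and 1 was lower. The share over all genes was 24.7% in each direction. The part of other cell types in the line difference was not tested.

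A check outside the genes compared showed that the lines also differ in RNA from the sex chromosomes. Xist, the X-inactivation RNA, was at 0.393 and 0.688 CPM in Cre-positive and 508 and 726 CPM in Cre-negative libraries. The Y-linked gene Eif2s3y was at 3.14 and 3.29 CPM in Cre-positive and 0.0440 and 0.0358 CPM in Cre-negative libraries, and Uty was at 2.12 and 1.67 CPM in Cre-positive libraries and had no counts in Cre-negative libraries. The 2 lines thus differ in Xist and Y-linked RNA as well as in genotype, and the part of this in any autosomal difference was not tested.

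The floxed genes were expressed in both lines, at lower levels in Cre-positive cells before any induction. Nabp1 was at 16.1 and 15.2 CPM in Cre-positive and 27.4 and 25.2 CPM in Cre-negative libraries (log2 -0.74 ± 0.081 SE, adjusted p = 9.39e-08). Nabp2 was at 22.5 and 20.7 CPM in Cre-positive and 27 and 27 CPM in Cre-negative libraries (log2 -0.32 ± 0.077 SE, adjusted p = 0.0017). The groups did not overlap for either gene, as was so for 73% of the genes off X and Y. Both code for single-stranded DNA-binding subunits of the SOSS complexes; of their shared partners, Inip was lower as well (log2 -0.24, adjusted p = 0.00176) and Ints3 was at 75.1 and 73.3 CPM in Cre-positive and 75.8 and 74.5 CPM in Cre-negative libraries (adjusted p = 0.817). Over all genes off X and Y, 24.7% were called higher and 24.7% lower. Near Nabp1, 5 of 7 other tested genes within 1 Mb were also lower and 0 were higher, with a median log2 of -1.05. Near Nabp2, 14 of 61 other genes were higher, close to the share over all genes, and 22 lower, with a median of -0.01. Around the Rosa26 locus, the long noncoding RNA Gt(ROSA)26Sor itself was at 10.4 and 10.3 CPM in Cre-positive and 12 and 10.8 CPM in Cre-negative libraries (log2 -0.13, adjusted p = 0.289). Of 37 other tested genes within 1 Mb of it 18 were higher and 3 lower, with a median log2 of 0.29, beside 0.22 for all of chromosome 6. Among these neighbours were Vhl, the oxygen-sensing ubiquitin ligase subunit (log2 0.69), Tada3, a subunit of histone acetyltransferase complexes (log2 0.65), and Irak2, a Toll-like receptor kinase (log2 0.94). The largest called differences were those of Cav3 (log2 4.21) and Creld1 (log2 1.26), both at low levels. Cav3 was at 0.708 and 0.933 CPM in Cre-positive and 0.0440 and 0.0358 CPM in Cre-negative libraries.

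Transcription factors that mark position in the limb and trunk separated the lines. Of 90 listed factors 59 were tested off X and Y, and 24 were higher, 19 lower and 16 not called; 31 were at least 2-fold apart, and the median absolute log2 difference was 1.13, beside 0.28 over all genes. Tbx5, which in the embryo marks the forelimb field and the heart, was at 13.8 and 13.7 CPM in Cre-positive and 0.176 and 0.107 CPM in Cre-negative libraries (log2 6.58 ± 0.23 SE, adjusted p = 3.74e-16). The hindlimb factors had the opposite pattern. Pitx1, which acts upstream in hindlimb identity, was at 2.44 and 1.96 CPM in Cre-positive and 37.1 and 40.6 CPM in Cre-negative libraries (log2 -4.13 ± 0.12 SE, adjusted p = 1e-17). Tbx4, the hindlimb relative of Tbx5, was at 1.73 and 2.16 CPM in Cre-positive and 26.6 and 26.8 CPM in Cre-negative libraries (log2 -3.79 ± 0.17 SE, adjusted p = 4.9e-14). Cre-positive cells thus held the forelimb factor with little of the hindlimb pair, and Cre-negative cells the hindlimb pair with little of the forelimb factor.

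The same 3 genes kept these levels in every other library. With ethanol, Tbx5 was at 14.2 and 14.6 CPM in Cre-positive and 0.155 and 0.273 CPM in Cre-negative libraries, and with 4-OHT at 14.4 and 15.7 CPM in Cre-positive and 0.0882 and 0.231 CPM in Cre-negative libraries. Pitx1 was at 2.65 and 2.91 CPM in Cre-positive and 38.1 and 40.1 CPM in Cre-negative ethanol libraries, and Tbx4 at 2.28 and 1.71 CPM in Cre-positive and 29.2 and 31.2 CPM in Cre-negative ethanol libraries. Over the 12 libraries, no Cre-positive library overlapped a Cre-negative one for any of the 3 genes. Among the untreated libraries alone, 73% of the genes off X and Y had no overlap between the lines. The share over all 12 libraries was not computed.

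Other positional factors fell on both sides. Higher in Cre-positive cells were the limb bud LIM factor Lhx9 (34.3 and 35.4 CPM in Cre-positive and 2.20 and 3.58 CPM in Cre-negative libraries, log2 3.56), the urogenital and scapular factor Emx2 (18.7 and 18.1 CPM in Cre-positive and 2.33 and 1.61 CPM in Cre-negative libraries, log2 3.24), Six2 (log2 3.87), Gata3 (log2 3.03), the ventral limb ectoderm and dermal factor En1 (log2 2.61), the zinc finger factor Sall1 (log2 2.34) and the neural crest factor Tfap2b (log2 1.76). Lower in Cre-positive cells was Irx1, an Iroquois factor, at 0.354 and 0.0982 CPM in Cre-positive and 15.6 and 15 CPM in Cre-negative libraries (log2 -5.96 ± 0.22 SE, adjusted p = 8.11e-16). Foxd1, a stromal forkhead factor, was at 0.786 and 1.13 CPM in Cre-positive and 25.2 and 24.1 CPM in Cre-negative libraries (log2 -4.70 ± 0.13 SE, adjusted p = 1.07e-17). Nkx3-2, a repressor that acts in cartilage and the axial skeleton, averaged 0.589 CPM in Cre-positive and 14 CPM in Cre-negative libraries (log2 -4.56 ± 0.17 SE, adjusted p = 9.17e-16). Gata6 (log2 -3.27), Tbx15 (log2 -2.55), Tbx20 (log2 -2.38) and Foxf1 (log2 -2.30) were lower too. Adjusted p for the genes given here with a log2 value alone, and for Lhx9 and Emx2, was 3.39e-06 or smaller. Some differences were small. Mecom, a zinc finger factor of limb mesenchyme, was at 362 and 377 CPM in Cre-positive and 322 and 309 CPM in Cre-negative libraries (log2 0.23, adjusted p = 2.43e-05), and Scx, the tendon factor, was at 60.0 and 59.1 CPM in Cre-positive and 71.1 and 69.5 CPM in Cre-negative libraries (log2 -0.24, adjusted p = 0.000234).

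**Figure D2:**
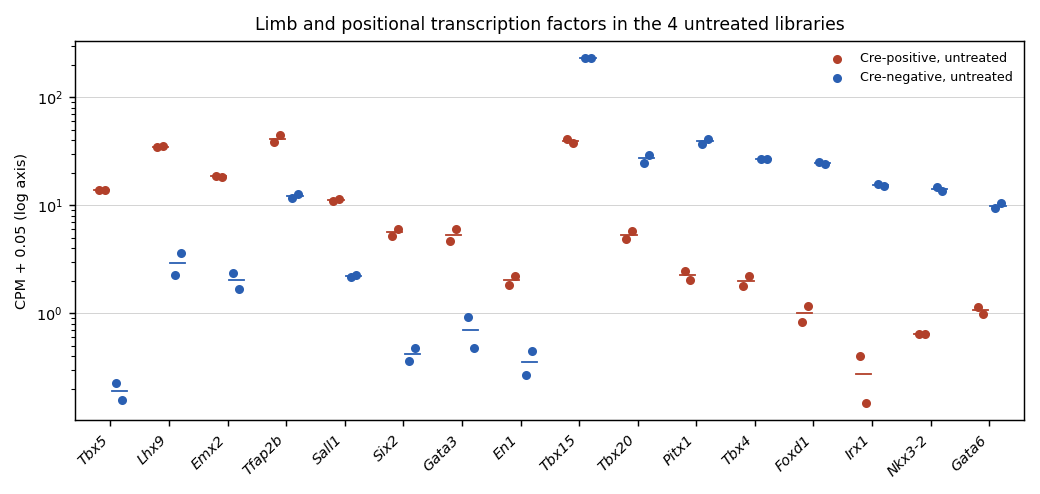
CPM plus 0.05, on a log axis, of 16 positional transcription factors in the 2 Cre-positive (red) and 2 Cre-negative (blue) untreated libraries; points are libraries and lines are means. Tbx5 is near 14 CPM in Cre-positive libraries and under 0.2 CPM in Cre-negative libraries, and Pitx1 and Tbx4 are higher in Cre-negative libraries. All 16 factors shown were called and at least 2-fold apart. Of the 59 tested, 31 were so and 16 were not called.

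The Hox clusters split by cluster and by line. These 4 clusters of homeobox genes record position along the body and limb axes, with the last members marking the most distal or posterior tissue. In neither line did any gene of HoxB or HoxC pass the filter: the 10 HoxB genes summed to 0.275 and 0.196 CPM in Cre-positive and 0.352 and 0.287 CPM in Cre-negative libraries, and the 9 HoxC genes to 0.118 and 0.196 CPM in Cre-positive and 0.220 and 0.251 CPM in Cre-negative libraries. Over all 12 libraries the highest summed level was 0.388 CPM for HoxB and 0.509 CPM for HoxC. All 11 HoxA genes and 7 of 9 HoxD genes were tested. HoxA summed to 163 and 161 CPM in Cre-positive and 105 and 107 CPM in Cre-negative libraries, whereas HoxD summed to 203 and 209 CPM in Cre-positive and 213 and 214 CPM in Cre-negative libraries.

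HoxA genes were higher in Cre-positive cells, 10 of 11 passing the test and Hoxa2 missing it (log2 1.26, adjusted p = 0.0566). Hoxa7 stood apart, at 5.15 and 4.03 CPM in Cre-positive and 0.220 and 0.0358 CPM in Cre-negative libraries (log2 5.23 ± 0.35 SE, adjusted p = 2.93e-11). The abundant posterior genes differed less: Hoxa10 was at 52.5 and 48.7 CPM in Cre-positive and 26.9 and 27.9 CPM in Cre-negative libraries (log2 0.89), Hoxa13 at 24.4 and 25.5 CPM in Cre-positive and 16.6 and 15.7 CPM in Cre-negative libraries (log2 0.63), and Hoxa9 and Hoxa11 had log2 values of 0.39 and 0.27. Hoxd13, the last HoxD gene and a marker of the distal limb and genital tubercle, was at 159 and 166 CPM in Cre-positive and 156 and 157 CPM in Cre-negative libraries (log2 0.05 ± 0.042 SE, adjusted p = 0.365). Within HoxD, Hoxd4, Hoxd8, Hoxd9 and Hoxd12 were lower in Cre-positive cells (log2 -2.39, -1.08, -1.19 and -1.74), Hoxd11 was higher (log2 0.49), and Hoxd10 was not called. Some of these calls rested on 1 library: Hoxa11 was not called without Cre-positive library 8 (adjusted p = 0.0813), Hoxd4 was not called without Cre-negative library 1 (0.0506) or Cre-positive library 7 (0.137), and Hoxa2 was called without Cre-negative library 2 (0.0186). HoxA lies at 52 Mb of chromosome 6, in a window from 50 to 60 Mb whose 68 tested genes had a median log2 of 0.42. Several Hox genes overlap antisense RNAs, and the sources used here do not give the strand setting of the authors' counting, so values of overlapping genes are uncertain.

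**Figure D3:**
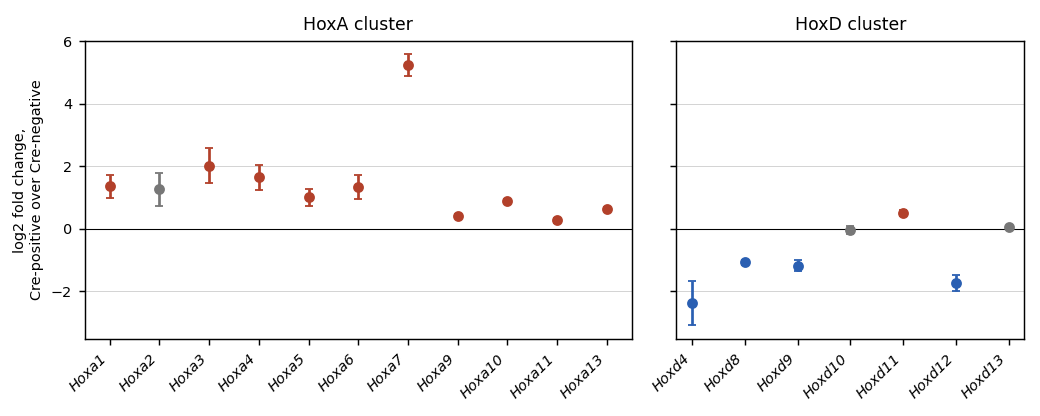
Log2 fold change of Cre-positive over Cre-negative untreated cells for each tested HoxA and HoxD gene, in order along the clusters, with bars of 1 standard error; red was called higher, blue lower and grey not called. Hoxa7 lies at 5.23, the other called HoxA genes lie between 0.27 and 2.01, and Hoxd13 lies at 0.05.

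Some genes were on in one line and next to absent in the other. Taking a mean of at least 1 CPM in one line and under 0.1 CPM in both libraries of the other, 58 genes were on in Cre-positive cells and 56 were on in Cre-negative cells. The entries AI662270 and Gm11427 overlap on the same strand of chromosome 11 and may share reads, so not all of these need be separate genes. All 114 were also called the same way between the lines with ethanol, and 36 of the 58 and 34 of the 56 met the same rule there. Ctsc, which codes for the lysosomal protease cathepsin C, was at 24.7 and 29.1 CPM in Cre-positive libraries and had no counts in either Cre-negative library, at least 225-fold higher in Cre-positive cells against a floor of 3 counts per library. Scrn1, for secernin 1, was at 30.4 and 28.1 CPM in Cre-positive and 0 and 0.0358 CPM in Cre-negative libraries. Tspan11, a tetraspanin, was at 24.6 and 23.7 CPM in Cre-positive and 0 and 0.0358 CPM in Cre-negative libraries. The others on in Cre-positive cells included Rgs16, an inhibitor of G protein signalling, Nynrin, the p38 kinase Mapk13, the B cell adaptor Blnk and the junctophilin Jph1, with means of 11.9, 10.9, 7.29, 6.06 and 5.98 CPM.

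Gdf6, a BMP-family ligand of joints and the skeleton, was among the most abundant genes on in Cre-negative cells. It had no counts in Cre-positive libraries, against 24 and 23.9 CPM in Cre-negative libraries, at least 181-fold lower in Cre-positive cells against the same floor. Acan, which codes for the cartilage proteoglycan aggrecan, likewise had no counts in Cre-positive libraries, against 15.7 and 19.2 CPM in Cre-negative libraries, at least 132-fold lower. Pcsk2, a prohormone convertase, was at 0.0393 and 0 CPM in Cre-positive and 19.8 and 20.7 CPM in Cre-negative libraries, and Foxp2, a forkhead factor, at 0.0393 and 0.0982 CPM in Cre-positive and 19 and 21.8 CPM in Cre-negative libraries. Thrombomodulin (Thbd) was at 0.0393 and 0.0491 CPM in Cre-positive and 19 and 18.7 CPM in Cre-negative libraries. Gabrb2, a GABA-A receptor subunit gene, had no counts in Cre-positive libraries, against 5.02 and 6.52 CPM in Cre-negative libraries, at least 43.5-fold lower. Mpzl3, Prkg1, a cGMP-dependent kinase, and the unnamed transcript AI662270 completed the most abundant of these genes, at 9.34, 8.79 and 25.3 CPM on average in Cre-negative libraries.

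The promoters of the most abundant one-line genes with an entry in the RefSeq table (GRCm38.p6) are shown. They were chosen by level and not by CpG content. Each run reads 5′ to 3′ on the gene's strand, from 250 bases before the RefSeq start to 50 after it, and capitals mark CG dinucleotides. The RefSeq start lay 107 bases from the GENCODE M21 start for Scrn1, 0 for Ctsc, 23 for Pcsk2 and 257 for Acan. The Acan window does not reach the GENCODE start. Scrn1 (chr6:54566333-54566632, minus strand, 17 CG) and Ctsc (chr7:88277835-88278134, plus strand, 12 CG) were on in Cre-positive cells. Pcsk2 (chr2:143545883-143546182, plus strand, 36 CG) and Acan (chr7:79052976-79053275, plus strand, 31 CG) were on in Cre-negative cells.
Scrn1: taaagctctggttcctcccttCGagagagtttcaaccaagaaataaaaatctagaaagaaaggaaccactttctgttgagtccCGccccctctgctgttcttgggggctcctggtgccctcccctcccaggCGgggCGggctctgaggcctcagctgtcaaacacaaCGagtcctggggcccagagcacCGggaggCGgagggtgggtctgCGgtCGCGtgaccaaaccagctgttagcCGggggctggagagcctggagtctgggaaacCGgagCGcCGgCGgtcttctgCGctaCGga
Ctsc: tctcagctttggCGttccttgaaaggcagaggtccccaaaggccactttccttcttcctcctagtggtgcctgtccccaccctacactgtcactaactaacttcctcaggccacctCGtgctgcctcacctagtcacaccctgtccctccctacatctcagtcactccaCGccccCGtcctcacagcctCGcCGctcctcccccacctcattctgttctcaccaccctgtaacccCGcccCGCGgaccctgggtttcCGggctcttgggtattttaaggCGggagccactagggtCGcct
Pcsk2: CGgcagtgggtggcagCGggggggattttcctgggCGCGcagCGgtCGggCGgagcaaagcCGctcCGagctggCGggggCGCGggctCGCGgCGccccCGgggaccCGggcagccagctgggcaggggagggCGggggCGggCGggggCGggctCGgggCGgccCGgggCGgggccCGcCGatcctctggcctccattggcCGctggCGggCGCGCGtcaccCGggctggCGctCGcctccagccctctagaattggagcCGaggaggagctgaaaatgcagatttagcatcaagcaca
Acan: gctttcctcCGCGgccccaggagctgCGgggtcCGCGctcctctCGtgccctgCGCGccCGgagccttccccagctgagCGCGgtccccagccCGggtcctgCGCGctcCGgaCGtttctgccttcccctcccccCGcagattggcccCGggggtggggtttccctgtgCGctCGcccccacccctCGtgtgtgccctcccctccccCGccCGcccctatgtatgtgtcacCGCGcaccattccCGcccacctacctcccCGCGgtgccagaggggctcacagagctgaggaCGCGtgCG

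Across the one-line genes, 34 of 58 on in Cre-positive cells and 34 of 56 on in Cre-negative cells had a promoter in that table. The median CG count was 16 in the first set (quartiles 6.25 to 27.5) and 11.5 in the second (6 to 29.75), against 21 (13 to 29) for the 10302 tested genes off X and Y with a promoter in the table and 7 for all 27025 promoters. The printed promoters were richer in CG for the genes on in Cre-negative cells, whereas the set medians ran the other way. Promoters poor in CG and rich in CG were found in both sets. The motif TATAAA, on either strand, was in 4 of 34 promoters of each set (11.8%), beside 7.07% of the promoters of tested genes and 14.2% of all promoters. These letters describe the window and say nothing of any factor.

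Genes of the extracellular matrix were mostly higher in Cre-positive cells. Of 70 tested matrix glycoproteins and proteoglycans 46 were higher and 14 lower, with a median log2 of 0.81; of 30 collagens 14 were higher and 4 lower; and of 39 matrix proteases and inhibitors 24 were higher and 8 lower. Nidogen 1 (Nid1), which links laminin and collagen IV in basement membranes, was at 87.3 and 92 CPM in Cre-positive and 0.484 and 0.860 CPM in Cre-negative libraries (log2 7.01 ± 0.13 SE, adjusted p = 1.19e-20). Versican (Vcan), a large proteoglycan of embryonic mesenchyme, was at 126 and 137 CPM in Cre-positive and 2.47 and 2.72 CPM in Cre-negative libraries (log2 5.65 ± 0.089 SE, adjusted p = 7.08e-22). The laminin chain Lama4 (log2 5.97) and thrombospondin 2 (Thbs2, log2 5.73) were higher as well. Versican and aggrecan, both large hyaluronan-binding proteoglycans, therefore differed in opposite directions.

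Collagen genes followed the same split. Col3a1, the collagen III chain of soft connective tissue, was at 632 and 646 CPM in Cre-positive and 160.1 and 155 CPM in Cre-negative libraries (log2 2.02 ± 0.049 SE, adjusted p = 8.72e-19), and with ethanol the difference was smaller (log2 0.99). Col12a1 (log2 1.73), Col27a1 (log2 3.85) and Col8a2 (log2 5.23) were higher. Col11a1, a fibrillar collagen of cartilage, was lower, at 10.7 and 11.2 CPM in Cre-positive and 57 and 53.1 CPM in Cre-negative libraries (log2 -2.33 ± 0.078 SE, adjusted p = 1.9e-16). Of the enzymes and inhibitors that remodel matrix, the serpin Serpinf1 was at 84.6 and 78.2 CPM in Cre-positive and 1.06 and 1.04 CPM in Cre-negative libraries (log2 6.28), gelatinase A (Mmp2) was higher with log2 4.03, cathepsin K (Ctsk) with 4.95 and the aggrecanase Adamts5 with 3.58. Serpine2, a thrombin and plasminogen activator inhibitor, was lower (log2 -5.62 ± 0.19 SE, adjusted p = 2.97e-16).

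Contractile genes were mostly higher in Cre-positive cells. Of 22 tested genes 20 were higher, 1 was lower (Smtn, log2 -0.37) and 1 was not called, Des, at 1.22 and 1.13 CPM in Cre-positive and 1.19 and 1.15 CPM in Cre-negative libraries; the median log2 was 0.90. Calponin 1 (Cnn1), an actin-binding protein of smooth muscle, was at 24.8 and 22.4 CPM in Cre-positive and 0.132 and 0.322 CPM in Cre-negative libraries (log2 6.62 ± 0.18 SE, adjusted p = 4.9e-18). The myosin light chain Myl9 was at 593 and 557 CPM in Cre-positive and 50.8 and 49.2 CPM in Cre-negative libraries (log2 3.52 ± 0.046 SE, adjusted p = 4.67e-23). Smooth muscle actin (Acta2), the classic myofibroblast marker, was at 2940.4 and 2850.0 CPM in Cre-positive and 725 and 723 CPM in Cre-negative libraries (log2 2.00 ± 0.038 SE, adjusted p = 1.42e-20). The actin-binding genes Tagln (log2 2.52), Cald1 (0.97), Tpm1 (0.82) and Vcl (0.69) were higher as well. Actin genes are close in sequence, and how reads were shared between Acta2 and Actg2 (log2 2.54) rests on the authors' estimated counts. Among smooth muscle and pericyte markers outside this set, Mcam was higher (log2 1.46) and Cspg4 lower (log2 -1.10), and Rgs5, Kcnj8 and Abcc9 did not pass the filter.

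**Figure D4:**
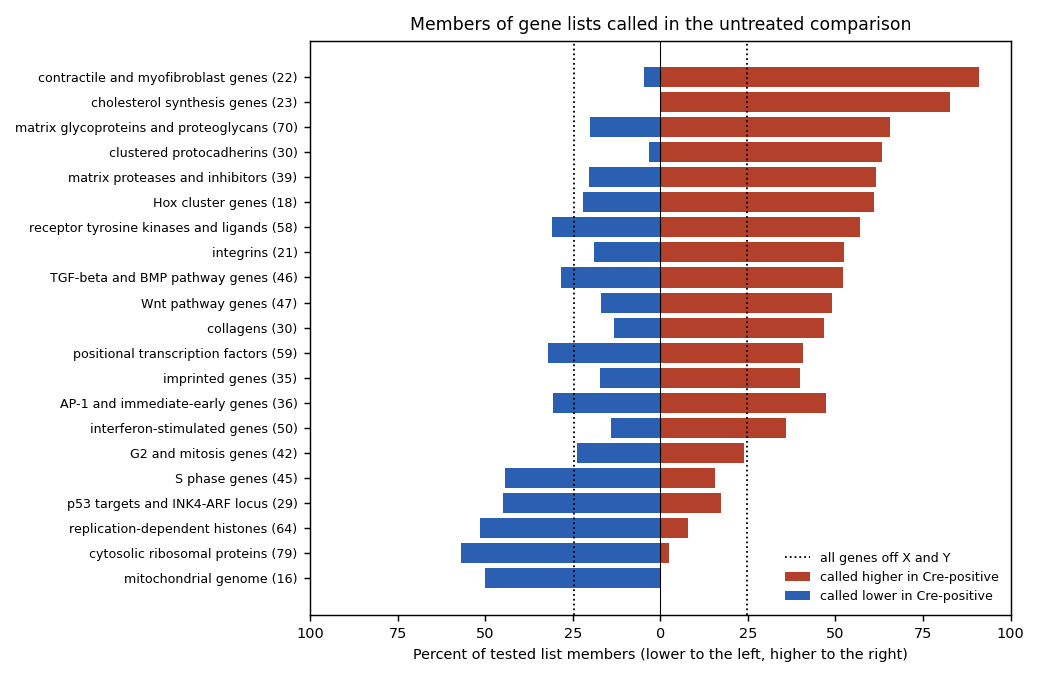
Percent of the tested members of 21 gene lists called higher (red, to the right) or lower (blue, to the left) in Cre-positive cells, with the number tested in brackets; dotted lines mark the 24.7% of all genes off X and Y called in each direction. Contractile, cholesterol and matrix lists lie mostly to the right, and histone, ribosomal and mitochondrial lists mostly to the left.

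Genes of cell adhesion and guidance differed in steps as large as these. Cadherin 11 (Cdh11), the cadherin of mesenchyme, was at 82.5 and 84 CPM in Cre-positive and 0.528 and 0.502 CPM in Cre-negative libraries (log2 7.33 ± 0.10 SE, adjusted p = 1.52e-22). Vcam1, the integrin ligand, was at 87.9 and 93.5 CPM in Cre-positive and 5.37 and 5.41 CPM in Cre-negative libraries (log2 4.07). The guidance ligand Slit2 was at 476 and 492 CPM in Cre-positive and 11.4 and 12.6 CPM in Cre-negative libraries (log2 5.33 ± 0.063 SE, adjusted p = 1.74e-23), and its relative Slit3 was at 35.2 and 38.1 CPM in Cre-positive and 0.528 and 0.287 CPM in Cre-negative libraries (log2 6.52). Both Slit ligands were thus lower in Cre-negative cells, where Slit2 was still at 11.4 and 12.6 CPM. Of 21 tested integrins 11 were higher and 4 lower, and of 19 cadherins and other protocadherins outside the clusters 10 were higher and 6 lower. Integrin alpha 7 (Itga7), a laminin receptor, was at 72 and 68.8 CPM in Cre-positive and 1.85 and 1.65 CPM in Cre-negative libraries (log2 5.34). Integrin beta 7 (Itgb7, log2 -2.41) and protocadherin 10 (Pcdh10, log2 -2.89) were lower. Of 51 guidance genes, 22 were higher and 17 lower. The shares over all genes off X and Y were 24.7% higher and 24.7% lower.

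The clustered protocadherins, which give neurons and other cells a combinatorial surface identity, were more often higher than lower. Of 30 tested genes 19 were higher, 10 were not called and 1 was lower (Pcdhga1, log2 -1.44), with a median log2 of 1.12; among those averaging at least 1 on the log2 CPM scale, 10 were higher and 0 lower. Pcdhb16 was at 50.3 and 57.5 CPM in Cre-positive and 3.79 and 4.23 CPM in Cre-negative libraries (log2 3.74 ± 0.11 SE, adjusted p = 9.77e-18). Pcdhgc3 was at 29.9 and 30.1 CPM in Cre-positive and 9.91 and 10.7 CPM in Cre-negative libraries (log2 1.54), while Pcdhb5 was at 5.46 and 5.01 CPM in Cre-positive and 4.62 and 4.12 CPM in Cre-negative libraries and was not called. Members share sequence, and those of the gamma cluster share 3′ exons, so single members are uncertain. The clusters lie on chromosome 18, in the window from 30 to 40 Mb, whose 132 tested genes had a median log2 of 0.49.

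Signalling genes differed at ligand and receptor level. For the counts below, the shares over all genes off X and Y were 24.7% higher and 24.7% lower. Of 58 receptor tyrosine kinases and ligands 33 were higher and 18 lower. Erbb3, a neuregulin receptor, was at 0.118 and 0.196 CPM in Cre-positive and 54.3 and 58.3 CPM in Cre-negative libraries (log2 -8.48 ± 0.17 SE, adjusted p = 2.3e-20). The growth factor Igf2 was at 6.17 and 7.76 CPM in Cre-positive and 0.220 and 0.0358 CPM in Cre-negative libraries (log2 5.81), and the IGF-binding proteins Igfbp2, with no counts in Cre-negative libraries and 4.76 and 4.76 CPM in Cre-positive libraries (at least 39.7-fold higher), and Igfbp3 (log2 5.63) went the same way. Igf2r, the receptor that clears Igf2, was lower, at 198 and 208 CPM in Cre-positive and 491 and 499.7 CPM in Cre-negative libraries (log2 -1.29). Of 46 TGF-beta and BMP pathway genes 24 were higher and 13 lower. Tgfb3, a ligand, was at 134 and 129 CPM in Cre-positive and 16.8 and 15.2 CPM in Cre-negative libraries (log2 3.05), whereas the BMP-responsive Smad9 was lower, at 2.95 and 3.68 CPM in Cre-positive and 24.5 and 26.3 CPM in Cre-negative libraries (log2 -2.95). Of 47 Wnt pathway genes 23 were higher and 8 lower, among them the ligand Wnt10a (log2 4.54), the secreted regulator Dkk2 (log2 3.11) and the receptor Fzd4 (log2 1.98) on the higher side and Rnf43, which removes Wnt receptors from the surface, on the lower side (log2 -2.53). Of 13 retinoid pathway genes 8 were higher and 2 lower (1 lower without Cre-negative library 1 or 2 or Cre-positive library 8), with the binding protein Crabp2 at 52.9 and 50.9 CPM in Cre-positive and 17.1 and 17 CPM in Cre-negative libraries.

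Some genes of the fat and cartilage lineages were much lower in Cre-positive cells, though neither list leaned lower as a whole. Pparg, the master regulator of fat cell formation, was at 1.38 and 1.62 CPM in Cre-positive and 37.5 and 37.8 CPM in Cre-negative libraries (log2 -4.66 ± 0.11 SE, adjusted p = 7.79e-19). The lipid droplet protein gene Plin4 was at 5.31 and 4.57 CPM in Cre-positive and 91.5 and 93.2 CPM in Cre-negative libraries (log2 -4.21), and the fatty acid carrier Fabp4 at 5.27 and 4.81 CPM in Cre-positive and 48.2 and 48.5 CPM in Cre-negative libraries (log2 -3.26). The whole adipogenic list did not lean one way, since 5 of 12 tested members were higher and 4 lower, and Cebpd, an early regulator, was higher (log2 1.81). In the cartilage and bone list 6 of 16 were higher and 4 lower. In each direction, 24.7% of all genes off X and Y were called. Sox5, which acts with Sox9 in cartilage, was at 0.236 and 0.737 CPM in Cre-positive and 18.8 and 21.3 CPM in Cre-negative libraries (log2 -5.44 ± 0.21 SE, adjusted p = 1.59e-15), Sox6 was lower too (log2 -1.74), and the parathyroid hormone receptor Pth1r was higher (log2 3.10). Tnfrsf11b, the decoy receptor osteoprotegerin that restrains bone resorption, was at 3.50 and 3.54 CPM in Cre-positive and 134 and 135 CPM in Cre-negative libraries (log2 -5.26 ± 0.082 SE, adjusted p = 6.26e-22). Myogenic genes were few, with 7 of 23 tested; Megf10, a satellite cell receptor that other cells also make, was higher (log2 6.02) and Tnnt2 lower (log2 -1.76).

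Imprinted genes, which are expressed from one parental copy, gave 14 higher and 6 lower of 35 tested. Sgce and Peg10 are neighbours transcribed from a shared promoter region on chromosome 6. Sgce was at 55 and 54.6 CPM in Cre-positive and 0.969 and 0.573 CPM in Cre-negative libraries (log2 6.18 ± 0.14 SE, adjusted p = 1.34e-19), and Peg10 at 56 and 64.4 CPM in Cre-positive and 2.77 and 3.15 CPM in Cre-negative libraries (log2 4.33 ± 0.12 SE, adjusted p = 5.79e-18). H19, the noncoding neighbour of Igf2, was at 0.629 and 0.589 CPM in Cre-positive libraries and had no counts in Cre-negative libraries. Grb10, a growth inhibitor, was lower, at 349 and 339 CPM in Cre-positive and 767 and 756 CPM in Cre-negative libraries (log2 -1.15), as were Plagl1 (log2 -1.27) and Peg12 (log2 -1.79). Gnas (log2 -0.04) and Ube3a (log2 -0.04) were not called. Meg3, Peg3 and Cdkn1c did not pass the filter.

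Lists of growth and cell division genes had small median differences. Of 79 tested cytosolic ribosomal protein genes 45 were lower and 2 higher, with a median log2 of -0.19, and 0 were 2-fold apart. Their summed level was 11974 to 12410 CPM in Cre-positive and 13965 to 14149 CPM in Cre-negative libraries; many have processed pseudogenes that could share reads. Of 64 replication-dependent histone genes 33 were lower and 5 higher, with Hist4h4, at 37.3 and 36.1 CPM in Cre-positive and 2.69 and 3.37 CPM in Cre-negative libraries, the largest exception (log2 3.59). Of 45 S phase genes 20 were lower and 7 higher, and of 42 G2 and mitosis genes 10 were higher and 10 lower, near the 24.7% over all genes in each direction, and none of either list was past 2-fold. Without Cre-negative library 1 the G2 and mitosis genes called lower were 4, and without Cre-positive library 8 they were 5. In the p53 list 13 of 29 were lower and 5 higher. Pmaip1, a pro-apoptotic BH3 protein gene on chromosome 18, was at 17.1 and 17.6 CPM in Cre-positive and 0.176 and 0.179 CPM in Cre-negative libraries (log2 6.57 ± 0.20 SE, adjusted p = 3.81e-17), whereas Perp was at 3.14 and 3.14 CPM in Cre-positive and 89.9 and 85.8 CPM in Cre-negative libraries (log2 -4.80 ± 0.085 SE, adjusted p = 3.96e-21). The cell cycle inhibitor genes Cdkn1a (log2 -2.12) and Cdkn2a (log2 -0.70) were lower. Of 16 mitochondrial genome genes 8 were lower and 0 higher, with a median log2 of -0.19; 4 were lower without Cre-negative library 2, 3 without Cre-positive library 7 and 4 with DESeq2.

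Several lists held more genes whose line difference was called different between untreated and ethanol libraries than the 16.5% over all genes. The share was highest for 3 lists, of cholesterol synthesis (21 of 23), histone (49 of 64) and interferon-stimulated genes (30 of 50), and it was also above 16.5% for others, among them the adipogenic (7 of 12), contractile (10 of 22), guidance (23 of 51), integrin (9 of 21) and matrix glycoprotein lists (28 of 70). Of 50 interferon-stimulated genes 18 were higher and 7 lower in untreated Cre-positive cells, but with ethanol 5 were higher and 35 lower, and the difference between the conditions was called for 30 genes, all toward higher values in the untreated comparison. Without Cre-negative library 2, and likewise without Cre-positive library 7, 11 were higher untreated. Irgm2, an interferon-inducible GTPase, was at 1.49 and 2.06 CPM in Cre-positive and 0.352 and 0.502 CPM in Cre-negative untreated libraries (log2 2.00), and at 2.95 and 3.15 CPM in Cre-positive and 3.99 and 4.82 CPM in Cre-negative ethanol libraries (log2 -0.54). Ifit3 was lower in both (log2 -1.34 untreated and -1.56 with ethanol). The histone list leaned lower in both conditions, with 5 of 64 higher and 33 lower untreated, and 5 higher and 52 lower with ethanol. The difference between the conditions was called for 49 of them, all toward higher values in the untreated comparison. All 19 called of 23 cholesterol synthesis genes were higher untreated (median log2 0.38), all 23 were higher with ethanol (0.98), and 21 were called between conditions; Hsd17b7 was at 108 and 109.6 CPM in Cre-positive and 72.9 and 70.2 CPM in Cre-negative untreated libraries, against 108 and 106 CPM in Cre-positive and 35.5 and 35.7 CPM in Cre-negative ethanol libraries. The class I heavy chain gene H2-K1 was lower in both conditions, at 4.52 and 4.32 CPM in Cre-positive and 28.8 and 30.4 CPM in Cre-negative untreated libraries (log2 -2.74); class I genes are near-identical copies, so how reads were split between them is uncertain. Of 17 tested class I presentation genes 4 were higher and 5 lower untreated, near the 24.7% over all genes in each direction, against 1 higher and 12 lower with ethanol, and 7 were called between conditions, all higher untreated.

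Expression differences were uneven along the chromosomes. Chromosome 18 stood apart: of its 437 tested genes 290 were higher in Cre-positive cells (66.4%) and 30 lower, and the median log2 difference was 0.47, a ratio of 1.38, against 0.01 for all genes. The value was 0.49 in the ethanol and 0.51 in the 4-OHT libraries, and its standard deviation over the 4 pairings of an untreated Cre-positive with an untreated Cre-negative library was 0.0075. Each of the 9 windows of 10 Mb on chromosome 18 had a median above 0.34, and they took the 5 highest places among the 234 windows with at least 20 tested genes, led by 0.80 for the first 10 Mb. Higher values thus ran along the whole chromosome. Chromosome 6, which carries Rosa26 and HoxA, came next with 380 of 943 genes higher, 127 lower and a median of 0.22. Chromosome 19 had a median of 0.13, chromosome 4 of -0.11, chromosome 10 of -0.14 and the mitochondrial genome of -0.19, and the other autosomes lay within 0.1 of all genes. Several genes described above lie on chromosome 18, among them Pmaip1, Megf10, the clustered protocadherins and Gata6, which was lower. Pdgfrb, a PDGF receptor gene, lies there too, at 207 and 209 CPM in Cre-positive and 119 and 121 CPM in Cre-negative libraries (log2 0.80).

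**Figure D5:**
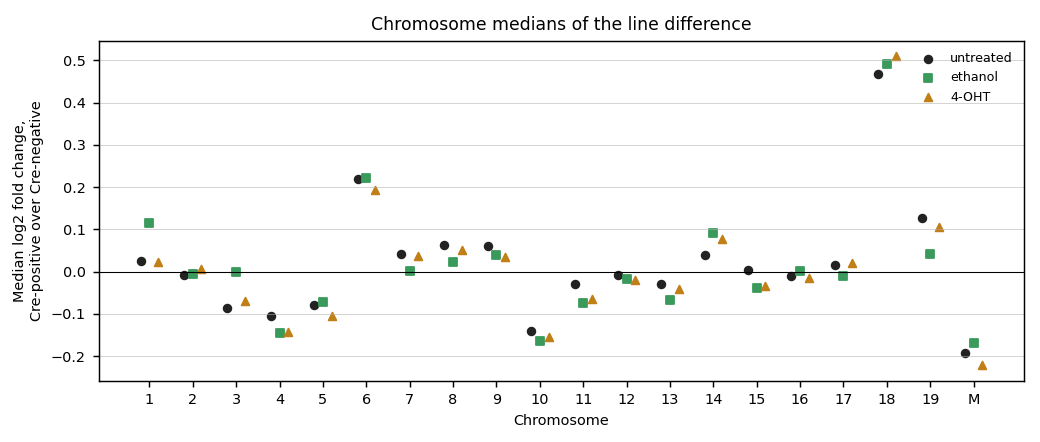
Median log2 fold change of Cre-positive over Cre-negative cells by chromosome for genes tested off X and Y, in untreated (circles), ethanol (squares) and 4-OHT libraries (triangles). Chromosome 18 lies at 0.47, 0.49 and 0.51 in the 3 conditions and chromosome 6 near 0.2, while the other autosomes lie between -0.16 and 0.13 and the mitochondrial genome (M) between -0.22 and -0.17.

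The lowest windows were on chromosomes 5, 10 and 2. The window from 10 to 20 Mb of chromosome 5 had a median of -1.10 over 22 genes, 14 lower and 1 higher, but -0.37 with ethanol. It holds 4 genes of the class 3 semaphorins, secreted guidance cues. Sema3a was at 184 and 186 CPM in Cre-positive and 449 and 451 CPM in Cre-negative libraries (log2 -1.28 ± 0.038 SE, adjusted p = 2.51e-17), Sema3e (log2 -1.19) and Sema3d (log2 -1.13) were lower, and Sema3c was the gene that was higher (log2 0.83). Most other symbols there are predicted transcripts, several of them inside the span of Sema3a or Sema3e, so they may count the same reads. On chromosome 10 the windows from 60 to 70 Mb and from 110 to 120 Mb had medians of -0.29 and -0.27, on chromosome 2 the window from 140 to 150 Mb had -0.28, and on chromosome 5 that from 80 to 90 Mb had -0.26.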

How the data were processed

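Total RNA was depleted of ribosomal RNA, made into libraries with a TruSeq Stranded Total RNA kit and sequenced as paired reads, per the labels' protocols. The authors deposited 1 table of estimated counts per gene symbol, written as whole numbers. Per the submitters' processing notes, cutadapt 1.11, STAR 2.5.2a, RSEM 1.2.30 and edgeR were used with GRCm38; the sources used here do not give the annotation, strand setting or rounding. The table holds 25 symbols in the form of dates, which could not be matched to genes.

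From these counts, genes kept by edgeR's filterByExpr (edgeR 4.0.16, R 4.3.3, limma 3.58.1) were scaled by TMM over 12 libraries and fitted with 6 group means. Line differences are log2 fold changes of Cre-positive over Cre-negative cells, tested by the quasi-likelihood F-test with Benjamini-Hochberg adjustment over all 17609 genes, at 0.05; standard errors were derived from the F statistic. With 2 libraries per group, an exact permutation test of a single value cannot go below p = 0.33. CPM values use TMM library sizes and are not scaled by gene length. Symbols were placed with GENCODE M21 and RefSeq GRCm38.p6. The scripts were tested on simulated data in which far fewer genes differed between the groups than were called here.

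The genes compared and the 45 gene lists were chosen with earlier results of these data known. Named genes were the 15 per direction with the largest called change, up to 5 per list, the SOSS genes, called neighbours of Rosa26 and the 8 most abundant one-line genes per direction; the other genes named were chosen after their values were seen, and some genes of the rule are not reported here. Fold bounds use a floor of 3 counts per library and, like any count, cover counting error only. Alternatives were other scalings, DESeq2 1.42.0, other filters, fewer libraries and other thresholds.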

Additional observations from a re-analysis of the deposited data

Results flagged for a closer look

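The log2 difference of Cre-positive over Cre-negative cells was not the same in untreated and ethanol libraries for 2750 genes by the interaction test of edgeR, 1371 with a higher and 1379 with a lower value in the untreated libraries. Among the genes named in the text, 34 were in this set. The untreated value exceeded the ethanol value on the log2 scale for Irgm2 by 2.54, Pmaip1 by 1.55, Col27a1 by 1.25, H2-K1 by 1.19, Hist4h4 by 1.07, Col3a1 by 1.02, Serpinf1 by 1.01, Erg by 0.967, Tnfrsf11b by 0.869, Sema3d by 0.694, Peg10 by 0.643, Tagln by 0.609, Plin4 by 0.54, Tada3 by 0.396, Myl9 by 0.285, Acta2 by 0.27 and Mecom by 0.184. The untreated value was below the ethanol value for Epas1 (-1.5), Dkk2 (-1.32), Hsd17b7 (-0.978), Sema3c (-0.808), Smad9 (-0.75), Tfap2b (-0.68), Col11a1 (-0.569), Fabp4 (-0.497), Vcl (-0.472), Tpm1 (-0.426), Sema3e (-0.375), Slit2 (-0.346), Sema3a (-0.326), Ube3a (-0.311), Col12a1 (-0.264), Nes (-0.218) and Cald1 (-0.182), each difference given as untreated minus ethanol. For Irgm2 the difference was 2.00 untreated and -0.54 with ethanol, so that the sign changed. The labels give 5 days for the ethanol cultures and no time for the untreated ones, so time in culture and ethanol cannot be told apart.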

How the results depend on the processing

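Under the alternatives tried for the untreated comparison, 6676 (DESeq2) to 8225 (RLE scaling) genes off X and Y were called, and 6968 to 7147 with 1 compared library left out; no gene called in both an alternative and the main fit changed direction. Setting library sizes from autosomal genes gave the same 8209 calls because TMM scaling returns nearly the same relative sizes, so it adds no separate check. The count at least 2-fold apart was 2067, and 1020 when genes had to average 1 on the log2 CPM scale, where fewer genes were tested. For the difference between untreated and ethanol libraries, DESeq2 called 803 genes higher and 130 at least 2-fold; with 1 library left out the calls ranged from 1723 to 2958, the higher calls from 900 to 1486, the lower calls from 806 to 1472 and those at least 2-fold from 169 to 307. One-line genes of Cre-positive cells numbered 112 and those of Cre-negative cells 87 at a mean of 0.5 CPM, and 108 and 84 with up to 0.2 CPM in the other line.

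Chromosome medians kept their sign throughout. With protein-coding genes alone they were 0.483 for chromosome 18, 0.248 for 6, -0.12 for 4 and -0.168 for 10; with genes averaging at least 1 on the log2 CPM scale they were 0.441 for 18, 0.175 for 6, 0.0974 for 19, -0.123 for 4 and -0.173 for 10. Under upper-quartile scaling, tried after seeing the data, they were 0.482, 0.234 and -0.0916 for 18, 6 and 4. With 1 library left out they ranged from 0.467 to 0.5 for 18, 0.183 to 0.226 for 6, 0.103 to 0.132 for 19, -0.119 to -0.0959 for 4, -0.172 to -0.137 for 10 and -0.213 to -0.138 for the mitochondrial genome.

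Some uncalled genes changed sign or reached 0: with 1 library left out the log2 differences ranged from -0.0481 to 0.0629 for Des, 0 to 3.29 for Fap, which had at most 1 count per library, -0.132 to 0.0293 for Gnas, -0.112 to 0.00498 for Hoxd10, -0.0354 to 0.121 for Nes and -0.0864 to 0.00478 for Ube3a, and the higher filter gave 0.00505 for Ints3, none of them called. The causes were not tested. No paired analysis was possible because the libraries compared share no replicate number. Hoxa2 and Hoxd4 had only a few counts in some libraries.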

Other observations

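Further gene groups held genes called in both directions between untreated Cre-positive and Cre-negative cells, beside 24.7% of all genes off X and Y called higher and 24.7% called lower. Of 41 tested detoxification genes 18 were higher and 12 lower. Cyp1a1, a target of the aryl hydrocarbon receptor, was at 0.511 and 0.344 CPM in Cre-positive libraries and had no counts in Cre-negative libraries (at least 3.57-fold higher against the floor of 3 counts per library), and the glutathione transferase gene Gstt1 was at 10.5 and 10.1 CPM in Cre-positive and 0.176 and 0.0716 CPM in Cre-negative libraries (log2 6.39). Abcb1a, a drug efflux pump, was lower, at 0.865 and 1.03 CPM in Cre-positive and 8.54 and 9.31 CPM in Cre-negative libraries (log2 -3.25). Of 36 AP-1 and immediate-early genes 17 were higher and 11 lower. The receptor tyrosine kinase antagonist Spry1 was at 2.67 and 3.73 CPM in Cre-positive and 0.0881 and 0.0716 CPM in Cre-negative libraries (log2 5.24), Spry4 (log2 3.70) and Fos (log2 2.41) were higher, and the phosphatase gene Dusp4 was lower (log2 -1.62). Of 37 chemokine, cytokine and adhesion genes 16 were higher and 11 lower (7 lower with DESeq2), with the cytokine gene Il6 at 0.550 and 0.688 CPM in Cre-positive and 0.0440 and 0.0716 CPM in Cre-negative libraries and the complement gene C3 lower (log2 -2.13).

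Of 38 glycolysis and hypoxia genes 20 were higher and 9 lower, and without Cre-negative library 2 the number higher was 12. Epas1, the hypoxia-inducible factor HIF-2 alpha, was at 5.90 and 5.55 CPM in Cre-positive and 0.440 and 0.681 CPM in Cre-negative libraries (log2 3.31), and the prolyl hydroxylase gene Egln3 was lower (log2 -1.48). Of 13 oncofetal genes 5 were higher, among them Plag1 (log2 2.92), and 5 lower, among them Afp (log2 -3.61). Of 12 DNA methylation and piRNA-pathway genes 7 were higher and 3 lower, with Zfp57, which protects methylation at imprinted regions, higher (log2 1.70) and Tdrkh, of the piRNA pathway, at 0.0393 and 0.0491 CPM in Cre-positive and 0.616 and 0.502 CPM in Cre-negative libraries. Of 9 neural and glial markers 4 were higher and 1 lower; Stmn2, a neuronal tubulin-binding protein gene, was at 11.6 and 10.3 CPM in Cre-positive and 0 and 0.107 CPM in Cre-negative libraries. Of 5 mesothelial markers 3 were higher and 1 lower, with Rspo1 at 1.26 and 1.38 CPM in Cre-positive and 0.0440 and 0 CPM in Cre-negative libraries and Krt19 lower (log2 -2.52). Of 9 genes known to vary between mouse strains 5 were higher and 3 lower, with the antiviral GTPase gene Mx1 higher (log2 2.98) and Nnt, which is deleted in part in some C57BL/6 stocks, lower (log2 -0.45).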
